A study of Homo sapiens with 14 samples.

Results

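In T47D cells, 66671 binding regions of the progesterone receptor (PR) were listed after progesterone (P4) that overlapped, by even 1 bp, no PR region of the vehicle list and no region of RNA polymerase III under either treatment. They are called gained regions here. The members were chosen by the measured positions of the regions in the 4 lists, and so by which regions passed the authors' threshold. They made up 59.8% (95% Wilson interval 59.5 to 60.1) of the 111515 PR regions listed under P4 on chromosomes 1 to 22 and X, and covered 19.0 of the 41.1 Mb of that list. The PR vehicle list held 38933 regions. With the PR P4 list cut to that length by −log10 q, the authors' measure of a region's significance, 14565 regions were gained, 37.4%, and at a −log10 q of at least 10 there were 9319, 30.5%, so the number depends on the length of the list and its threshold. The regions had been mapped by chromatin immunoprecipitation sequencing (ChIP-seq) in T47D, a human luminal breast cancer cell line labelled as positive for the oestrogen receptor (ER) and PR, treated for 1 h with ethanol, the vehicle, or with P4. The precipitated proteins were PR and POLR3A, a catalytic core subunit of RNA polymerase III. The labels give 3 replicate libraries for every pair of antibody and treatment, and a pooled input for each treatment. The 14 libraries come from this 1 line, with no other genotype or agent. Each antibody and treatment has 1 deposited list, so no value per replicate was used here, no difference could be set against the spread between replicates, and no test was run. The regions of 1 list are not replicates, and the intervals printed with shares cover counting error only.

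PR is a nuclear receptor that waits in a complex with chaperones, and on binding its hormone it pairs up and binds DNA at the progesterone response element, an inverted repeat of the hexamer AGAACA around a short spacer. It shares this element with the glucocorticoid and mineralocorticoid receptors. In breast epithelium most of its sites lie away from gene starts, in enhancers, and its known targets include the chaperone gene FKBP5 and the transcription factor gene ZBTB16. RNA polymerase III transcribes tRNAs, 5S ribosomal RNA and other short RNAs.

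The sequences in the files are limited to promoters, so the response element was looked for in the 15812 promoter windows that RefSeq gives for the 19821 protein-coding genes (GRCh38.p14, from 250 bases before to 50 bases after the gene start). The element was searched as the arm GNACA, the spacer NNN and the arm TGTNC in a row, which reads the same on both strands. The summit, the highest point, of a gained region lay in 422 windows, and 2 of them held the element, those of FOXN3, a forkhead repressor, and EVA1A, a membrane protein linked to autophagy. Windows are counted per gene, so a start shared by several genes counts more than once. The intervals for windows below do not allow for this. Below are the elements of every promoter window that held a PR summit under P4 and a match, 5′ to 3′ on the gene's strand, with the fixed letters of the motif in capitals. They are shown so that the gained windows can be compared with those of other PR regions.
FOXN3 (gained, no POLR3A): GaACAtctTGTgC
EVA1A (gained, no POLR3A): GaACAttcTGTaC
SPINT3 (gained, with POLR3A): GaACActcTGTtC
MAP3K6 (PR in both treatments, no POLR3A): GcACAggcTGTtC
DNAAF10 (PR in both treatments, no POLR3A): GaACAttcTGTgC
EEF2K (PR in both treatments, no POLR3A): GgACActgTGTaC
PPARGC1A (PR in both treatments, no POLR3A): GtACAggcTGTcC
H1-3 (PR in both treatments, with POLR3A): GgACAtgcTGTtC
TXNIP (PR in both treatments, with POLR3A): GcACAccgTGTcC
MYNN (PR in both treatments, with POLR3A): GtACAtccTGTaC

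At FOXN3 the centre of the element lay 4 bp from the PR summit. That region, chr14:89619284-89619525, had a −log10 q of 8.96 and was 4.28-fold enriched over background. At EVA1A the element lay 58 bp from the summit of a weak region, chr2:75569672-75569849, with a −log10 q of 3.36 and a fold of 3.36. In the other 8 windows the element lay 3 to 21 bp from the summit. Among the 62 gained windows with the hexamer AGAACA or its complement TGTTCT, the median distance to the summit was 49.5 bp, and 32 had it within 50 bp.

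Stretches of 4 promoters are printed to show where the motifs lie. For FOXN3 and EVA1A the capitals mark the response element, and for HOXC4 and ETHE1, the strongest windows with the hexamer, they mark AGAACA or its complement. HOXC4 and HOXC5, homeobox genes, share 1 annotated start and the same region. ETHE1 encodes a mitochondrial enzyme of sulfide breakdown. The positions are chr14:89619296-89619415 (minus strand), chr2:75569720-75569869 (minus), chr12:54016768-54016917 (plus) and chr19:43527332-43527451 (minus) of GRCh38.
FOXN3: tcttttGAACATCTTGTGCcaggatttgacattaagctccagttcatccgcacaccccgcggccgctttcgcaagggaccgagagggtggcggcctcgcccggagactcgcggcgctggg
EVA1A: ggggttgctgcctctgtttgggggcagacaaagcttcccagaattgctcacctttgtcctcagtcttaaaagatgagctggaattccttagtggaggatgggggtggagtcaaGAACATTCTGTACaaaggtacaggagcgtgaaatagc
HOXC4: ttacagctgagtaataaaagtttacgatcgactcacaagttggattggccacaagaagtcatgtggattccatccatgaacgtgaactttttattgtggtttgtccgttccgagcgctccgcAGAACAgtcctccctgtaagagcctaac
ETHE1: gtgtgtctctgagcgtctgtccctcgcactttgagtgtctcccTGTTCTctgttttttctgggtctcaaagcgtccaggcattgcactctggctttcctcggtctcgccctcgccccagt

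Over the windows as a group, the response element was in 0.474% of the 422 gained windows (95% interval 0.130 to 1.71) and in 0.247% of all promoters. In the 113 windows with a PR summit present in both treatments and no POLR3A, it was in 3.54% (1.39 to 8.75), or 4 windows. It was in 0.188% (0.0332 to 1.06) of the 532 windows of gained regions with POLR3A. In the 353 windows of regions of both treatments with POLR3A it was in 0.850% (0.289 to 2.47). The hexamer was in 14.7% of the gained windows (11.6 to 18.4) and in 11.2% of all promoters (10.7 to 11.7). It was in 24.8% (17.7 to 33.5) of the 113 windows, in 11.3% of the 532 and in 13.0% of the 353. The forkhead motif TGTTTAC was in 3.32% against 2.62% of all promoters, the AP-1 motif TGANTCA in 5.69% against 5.76%, and the GATA motif AGATAA in 8.29% against 7.55%. Each motif was searched on both strands. The gained windows had a median GC content of 61.2%, and all promoters 62.7%. A match is a match of letters, and most gained regions lie outside these windows.

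The strongest gained promoter region lay at the shared start of HOXC4 and HOXC5 (chr12:54016720-54017018, −log10 q 57.2, fold 11.6), with its summit 26 bp before the start and 30 bp from the hexamer. The next were SPMIP2 on chromosome 4 (−log10 q 39.9), SHROOM1, an actin-binding protein gene on chromosome 5 (38.5), ZNF791, a zinc finger gene on chromosome 19 (33.0), and GPX8, a peroxidase gene on chromosome 5 (32.2). None of these 4 windows held the hexamer. ETHE1 followed with 29.8, the shared start of IQCJ and IQCJ-SCHIP1 with 28.7, and MIEF2, a mitochondrial fission factor gene, with 28.7. The median over the 422 windows was 4.07, so most promoter regions among the gained ones were weak.

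Gained regions were weaker and narrower than PR regions present in both treatments. The fold enrichment and the −log10 q are the authors' values for each region and rank regions within the list. They come from the contrast that the rule used, so they are given as a description. The widths are a description too, because a wider region has more bases that can overlap another list. The median −log10 q was 3.96 for the gained regions (quartiles 2.79 and 6.65), 4.07 for the 16061 gained regions with POLR3A, and 30.5 for the 16103 regions present in both treatments without POLR3A. The median folds were 3.36, 3.24 and 8.88, and the median widths 249, 322 and 400 bp. The 12680 regions present in both treatments with POLR3A had medians of 13.9 for −log10 q, 4.46 for fold and 549 bp for width. In the distribution of −log10 q, the gained classes lie together to the left of the classes found in both treatments.

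**Figure D1:**
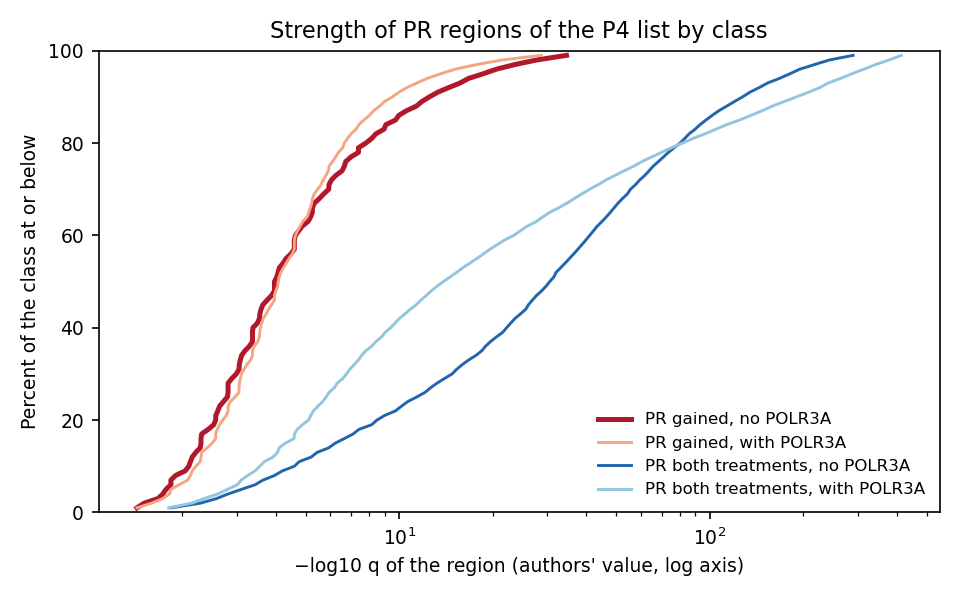
Cumulative percent of PR regions of the P4 list (y axis) at or below a −log10 q (x axis, log scale) for 4 classes, drawn from percentiles 1 to 99. The gained regions without POLR3A have a median of 3.96, and those present in both treatments without POLR3A a median of 30.5.

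The share of gained regions was higher in each lower rank band of the PR P4 list. The strongest 1% of the list, 1115 regions, held 0 gained regions, and the next 4460 held 2. From 5% to 10% there were 441, or 7.91% of the band. From 10% to 20% there were 4188, or 37.6%, and from 70% to 100% there were 25846, or 77.3%. Even so, 9319 gained regions reached a −log10 q of 10, 2831 reached 20 and 150 reached 50. At the edge of the rule, 137 gained regions lay within 50 bp of a PR vehicle region without touching it and had a median −log10 q of 3.36, while the 178 regions that overlapped a region of that list alone by at most 50 bp had 3.60. For the edges of the POLR3A lists the medians were 3.36 on either side under vehicle (249 and 284 regions) and 3.54 on either side under P4 (396 and 570 regions).

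**Figure D2:**
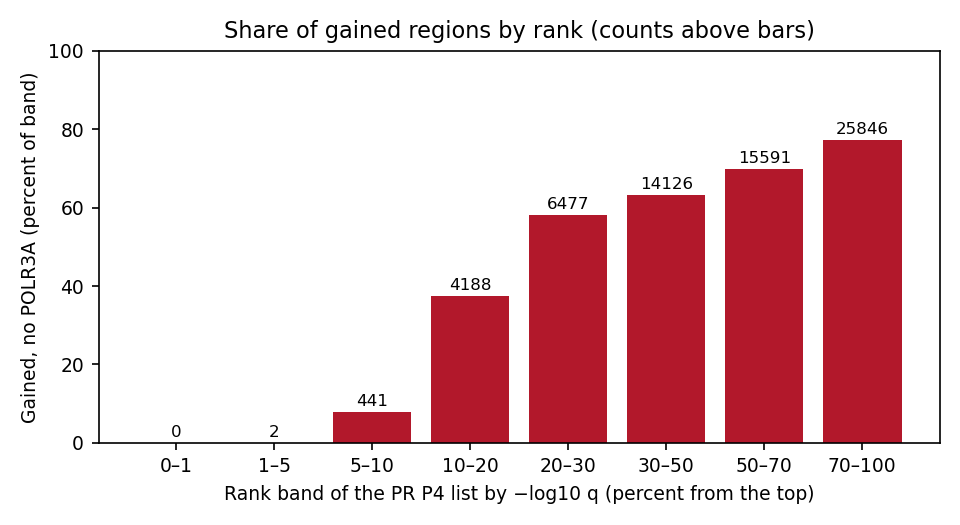
Percent of each rank band of the PR P4 list (x axis, percent from the top by −log10 q) that is gained without POLR3A (y axis), with the number of gained regions above each bar. The band from 1% to 5% holds 2 and the band from 70% to 100% holds 25846.

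The strongest gained region lay on chromosome 1 (chr1:121604825-121605112, −log10 q 108.5, fold 22.4), 141842 bp from the nearest gene listed as protein-coding. Regions of all 3 other lists lay 5081 to 5110 bp away. The stretch around it, 120 to 125 Mb, was crowded in other lists, with 519 PR vehicle regions and 448 POLR3A regions under P4. It held 159 gained regions and 9 coding genes. Regions prone to artefacts were not left out here, and whether this is one was not tested. The next strongest gained region lay within PRRC2B on chromosome 9 (chr9:131418119-131418960, −log10 q 95.4, fold 18.0), where a POLR3A region under P4 lay 76 bp away. The one within ADGRV1, an adhesion receptor gene on chromosome 5 (chr5:91151871-91152261), had a −log10 q of 79.0 and lay 24615 bp from the nearest PR vehicle region and 127691 bp from the nearest POLR3A region under P4. Within ABHD17C, a depalmitoylase gene on chromosome 15, the value was 77.7. The nearest PR vehicle region was 71251 bp away, but POLR3A regions lay 4848 bp away under P4 and 6491 bp away under vehicle. Within ITIH5, which encodes a hyaluronan-binding matrix protein on chromosome 10, it was 77.3, with 72025 bp to the nearest PR vehicle region and 30524 bp to the nearest POLR3A region under P4. The region near TMEM92 on chromosome 17 had 77.7 but lay 640 bp from a PR vehicle region. The one next to HDAC11, a histone deacetylase gene on chromosome 3, had 75.3, a summit 320 bp from the gene start, and a POLR3A vehicle region 173 bp away. The other 3 of the 10 strongest were on chromosome 8, with −log10 q of 77.6, 75.5 and 75.3. Distances to the other lists thus differed widely among these strong gained regions.

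Most gained regions had PR vehicle regions in their neighbourhood. The nearest PR vehicle region was at a median of 10712 bp. It was within 1 kb for 11.2%, within 5 kb for 34.5% and within 50 kb for 81.8%. For the gained regions with POLR3A the median was 3685 bp and the share within 5 kb was 55.3%. The nearest POLR3A region was at a median of 18026 bp under vehicle and 8684 bp under P4, and for PR regions of both treatments without POLR3A these distances were 23646 and 11445 bp. Stronger gained regions lay farther from PR vehicle regions. The median distance was 9717 bp for the 41786 with a −log10 q under 5, 14654 bp for the 6488 from 10 to 20, and 16272 bp for the 150 at 50 or more. The share within 5 kb of a PR vehicle region was 36.1% (35.6 to 36.5) in the weakest band, 34.0% (33.3 to 34.8) from 5 to 10, 28.9% (27.8 to 30.03) from 10 to 20, 27.6% (25.9 to 29.3) from 20 to 50 and 28.7% (22.03 to 36.4) at 50 or more. The interval of the strongest band spans the values of the other bands.

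Isolated gained regions were less common. The nearest region of any of the other 3 lists was within 1 kb for 16275, or 24.4%, and beyond 100 kb for 2734, or 4.10%. The isolated ones had a median −log10 q of 5.93, and those within 1 kb had 3.77. Of the strongest isolated regions outside chromosome 8, 4 are named here, picked after their values were seen. They include those in GTF2F2, a general transcription factor subunit gene (chr13:45120312-45121256, −log10 q 67.1, with no other list's region within 197505 bp), MAGI1, a junction scaffold gene (63.2), and the imprinted SNRPN and SNURF locus (60.6). Another lay 534949 bp from its nearest coding gene, the cadherin gene CDH11 (56.8).

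Gene starts were sparse among gained regions without POLR3A. Start positions came from the promoter windows, which hold none for chromosome 8, so that chromosome was left out of these shares. Within 1 kb of a protein-coding start lay 3185 of 63653 summits, 5.00% (4.84 to 5.18). The share was 18.5% (17.9 to 19.2) for gained regions with POLR3A and 14.6% (14.0 to 15.3) for regions of both treatments with POLR3A. PR regions of both treatments without POLR3A had 4.39% (4.08 to 4.73), slightly less than the gained ones. Within 5 kb lay 14.9%, 31.0%, 24.1% and 12.9%, in the same order. A median gained summit was 37596 bp from a start, and 42.9% were beyond 50 kb. The share within 1 kb of a start was 5.23% (5.01 to 5.45) in the gained regions with −log10 q under 5 and 5.17% (4.83 to 5.54) from 5 to 10. It was 3.60% (3.16 to 4.09) from 10 to 20, 3.90% (3.21 to 4.72) from 20 to 50 and 5.80% (2.97 to 11.0) at 50 or more, and the share did not fall from band to band throughout. In the plot of distance to gene starts, the classes with POLR3A stand above those without it in the bins up to 1 kb.

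**Figure D3:**
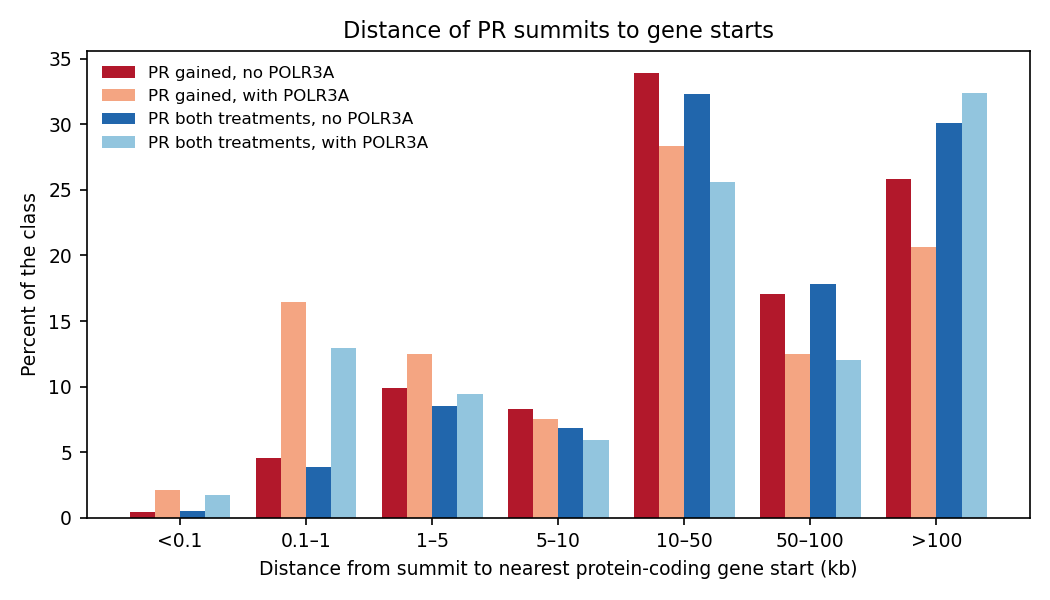
Percent of PR summits of the P4 list (y axis) by distance to the nearest protein-coding gene start in kb (x axis) for 4 classes, chromosome 8 left out. Within 0.1 to 1 kb lie 4.58% of the gained regions without POLR3A and 16.4% of those with POLR3A.

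Inside protein-coding genes, from the first to the last annotated base, lay 36625 gained summits, 54.9% (54.6 to 55.3). The share was 51.5% for gained regions with POLR3A, 53.4% for those of both treatments without POLR3A, and 42.8% for those of both treatments with it. It was 54.7% (54.2 to 55.1) for gained regions with −log10 q under 5 and 69.3% (61.5 to 76.2) for the 150 at 50 or more. Of the 30046 summits outside coding genes, 6617, or 22.02%, lay within a long non-coding RNA gene. The remaining 23429, 35.1% of all gained regions, lay in neither kind of gene.

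Among small RNA genes, gained regions reached 0 of the 429 nuclear tRNA genes with 100 bp on either side, where any PR region under P4 reached 112 and POLR3A under P4 reached 351. The rule leaves out every region that overlaps a POLR3A region. Within 1 kb of the gene the count was 26 tRNA genes. Of 1911 microRNA genes, 34 overlapped a gained region and 115 overlapped any PR region under P4. The strongest was at MIR3198-1 on chromosome 22 (chr22:17764061-17764381, −log10 q 26.6, fold 9.02), with the summit within the hairpin gene. The next were at MIR6516 on chromosome 17 (16.5) and MIR2277 on chromosome 5 (15.4), with summits 113 and 279 bp from the gene.

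Gained regions were spread unevenly over the chromosomes. There were 22.005 per Mb of annotated length over all, from 5.85 on X, 9.56 on chromosome 13 and 9.66 on chromosome 4 to 47.8 on chromosome 17 and 53.6 on chromosome 20. The PR vehicle list had 4.11 per Mb on X and 29.1 on chromosome 20, and the POLR3A P4 list 3.21 and 47.9, so dense chromosomes were dense in these lists as well. On chromosome 13, 0 to 15 Mb held no gained region, no region of these lists and no coding gene, yet counts in its length. As a share of the PR P4 regions of a chromosome, gained regions varied less, from 54.8% (52.6 to 57.0) on chromosome 13 to 65.3% (63.2 to 67.3) on chromosome 22.

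**Figure D4:**
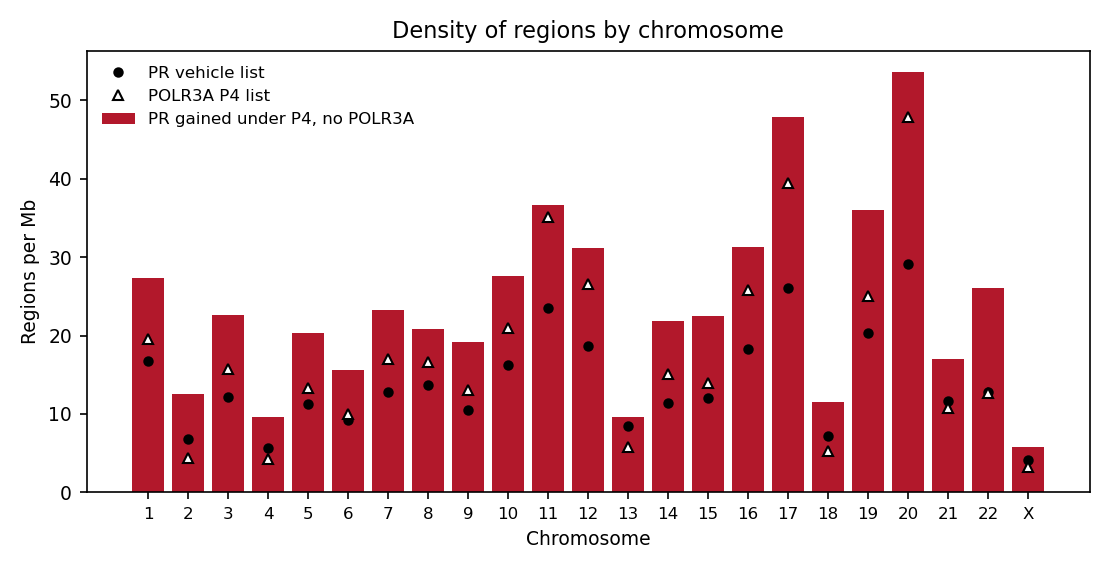
Regions per Mb of annotated length (y axis) by chromosome (x axis), with bars for gained PR regions without POLR3A, filled circles for the PR vehicle list and open triangles for the POLR3A P4 list. Gained regions run from 5.85 per Mb on X to 53.6 on chromosome 20.

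In windows of 5 Mb, the median number of gained regions was 74 (quartiles 32 and 155). The fullest window lay at 65 to 70 Mb on chromosome 11, with 641 gained regions, 371 PR vehicle regions and 653 POLR3A regions under P4. The next lay at 85 to 90 Mb on chromosome 16 with 553 and at 75 to 80 Mb on chromosome 17 with 527. Of the 619 windows, 19 held 0. Most of these also held no PR vehicle region, no POLR3A region under P4 and no coding gene, and they count in the coefficients below. Across windows, Spearman's rho of the gained count was 0.94 with the PR vehicle count, 0.92 with the POLR3A P4 count and 0.69 with the number of coding genes. The windows come from the same lists, so these coefficients are a description.

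A median gained summit had the next one 5276 bp away, 66.8% had one within 10 kb and 25.6% within 2 kb. Measured within their own class, gained regions with POLR3A had 54.1% within 10 kb and 26.2% within 2 kb, and regions of both treatments had 34.7% and 11.1% without POLR3A and 57.1% and 28.1% with it. The classes differ in size, and the shares were not adjusted for it. With summits at most 10 kb apart joined, there were 35501 groups, of which 22133 were single regions. A further 2315 groups held at least 5 regions and together 16618 of them. Of these 2315, 596 spanned no PR vehicle region. The largest runs held 30 gained regions each. One spanned 88913 bp at ANKRD11, a chromatin regulator gene on chromosome 16, with 20 PR vehicle regions among them, and its gained regions had −log10 q from 1.34 to 57.7. The other spanned 85663 bp at PPP6R3, a phosphatase subunit gene on chromosome 11, with 10 PR vehicle regions and a highest −log10 q of 15.2. A run of 29 on chromosome 3 (194232719 to 194348438) held CPN2, and a run of 27 next to it held HES1, a Notch target gene. A run of 28 on chromosome 20 (53731561 to 53873005) held no protein-coding gene. In these 5 runs the median −log10 q was 3.55 to 4.55, so the runs were mostly of weak regions.

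Counted by gene, 17365 of 19821 protein-coding genes, 87.6%, had a gained region within 50 kb of their span, 14595, 73.6%, within 10 kb, and 10895, 55%, within the span. With a share this high, a gene with a gained region within 50 kb is the common case. Genes with a gained region in the span had a median length of 43.3 kb and those without one 11.3 kb. Of the 5036 genes with no PR vehicle region within 50 kb, 3134 had a gained region there, 62.2%, which is below the 87.6% over all coding genes. These 3134 were 15.8% of all coding genes. A region counts for every gene within reach.

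Among these 3134, the genes with most gained regions were picked out after their values were seen. PDE8A, a phosphodiesterase gene for cyclic AMP on chromosome 15, had 21 within 50 kb and 13 in its span. The highest −log10 q within that span was 6.57. STAG1, a cohesin subunit gene on chromosome 3, had 18 and 16, with a highest of 4.15 in the span. MLEC, CABP1 and UNC119B, neighbours on chromosome 12, had 20, 19 and 18, and their flanks of 50 kb overlap. BLVRA, which encodes biliverdin reductase, and TPST1, which encodes a tyrosine sulfotransferase, both on chromosome 7, had 17 each.

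The genes with most gained regions in their span were long. GSE1, a corepressor complex gene of 506.7 kb on chromosome 16, had 85, beside 117 PR vehicle regions. GRIK4, a glutamate receptor gene on chromosome 11, had 79, and KCNMA1, a potassium channel gene on chromosome 10, had 70, beside 50 and 73 PR vehicle regions. RAD51B, a DNA repair gene on chromosome 14, had 64 and 35. SHANK2, a synaptic scaffold gene of 785.4 kb on chromosome 11, had 56 gained regions beside 15 PR vehicle regions. SLC24A3 had 55 and 23, ANKRD11 51 and 39, TNS3 49 and 30, PREX1 47 and 25, and DIP2C 46 and 27. SHANK2 had the lowest ratio of vehicle to gained regions among the 10.

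Per 100 kb, among genes of at least 20 kb, the densest was ALDH3B1, an aldehyde dehydrogenase gene on chromosome 11, with 43.4, or 9 gained regions in 20.7 kb and 0 PR vehicle regions in the span. Its strongest gained region had a −log10 q of 5.17. CTDSP2, a phosphatase gene on chromosome 12, followed with 37.3 (10 regions, highest −log10 q 34.5), then SLC6A12, a betaine transporter gene on chromosome 12, with 36.3, and HOGA1 on chromosome 10 with 35.2. AAR2, P2RY2, KHDC4, JPT2, BAHD1 and SIAH2 had 31.8 to 34.2. These counts rest on 7 to 11 regions a gene.

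The listed genes were described by how many gained regions lay within 50 kb, beside the median of 5 over all coding genes. All 134 listed genes were matched by symbol. The lists were written with earlier results of these data known. All 20 PR target genes had a gained region within 50 kb, against 87.6% of all coding genes, and all 20 also had a PR vehicle region there. Their median was 8 gained regions, or 7.08 per 100 kb of gene and flanks, against 3.34 over all coding genes. They also had more PR vehicle regions within 50 kb, with a median of 6 against 2 over all coding genes. For the lists below, this vehicle median was 7 for luminal factors, 3 for coregulators, 5 for AP-1 and 3 for growth factor genes. It was 2 for Wnt, 4 for adhesion, 4 for lipid genes and 0 for other tissues.

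GREB1, a hormone-induced growth regulator gene, and ZBTB16, a zinc finger repressor gene, each had 30 gained regions within 50 kb, with highest −log10 q of 39.9 and 18.9. PRLR, the prolactin receptor gene, had 28 (highest 12.4), and FKBP5, the receptor chaperone gene, had 25 (highest 59.0). S100P, a calcium-binding protein gene, had 16, and EHF and ELF5, neighbouring epithelial transcription factor genes, had 15 and 14. Of the signals that progesterone-responsive cells pass to neighbours, TNFSF11, which encodes RANKL, had 2 with a highest −log10 q of 29.8. WNT4 had 5 with a highest of 23.5, and AREG had 3 with a highest of 8.88. SGK1, a kinase gene that glucocorticoids also induce, had 1 with a −log10 q of 2.56. Within 10 kb, 19 of the 20 had a gained region, with AREG the exception.

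Of 15 luminal transcription factor genes, all had a gained region within 50 kb, against 87.6% of all coding genes. The median was 9, or 5.39 per 100 kb of gene and flanks, against 3.34 over all coding genes. SPDEF, an epithelial ETS factor gene, had 25 (highest −log10 q 34.9), ELF3 18, ZNF217 17 and XBP1 15. TFAP2B and KLF5 had gained regions (2 and 1) and no PR vehicle region within 50 kb. ESR1 and PGR, the receptor genes themselves, had 12 and 8, with highest values of 24.6 and 9.61. FOXA1, the pioneer factor gene, had 6 and GATA3 had 7.

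All 14 coregulator genes had a gained region within 50 kb, against 87.6% of all coding genes, with a median of 7. These are long genes, and per 100 kb of gene and flanks the median was 3.87, against 3.34 over all coding genes. KMT2D, a histone methyltransferase gene, had 22, CREBBP, an acetyltransferase gene, had 19, and NCOA3, a coactivator gene, had 17 (highest −log10 q 38.5). KMT2C had 5 and no PR vehicle region within 50 kb. All 11 AP-1 genes had a gained region within 50 kb, with a median of 12 over short genes, or 9.64 per 100 kb of gene and flanks. ATF3 had 18 (highest 43.0) beside 3 PR vehicle regions, MAFG 16 beside 2 and FOSL1 17 beside 9, while JUN had 1.

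Among 15 growth factor receptor and ligand genes the median was 5, equal to that of all coding genes. Per 100 kb of gene and flanks it was 2.90, against 3.34 over all coding genes. IGF1R, the insulin-like growth factor receptor gene, had 48 (highest −log10 q 29.8), the most of any listed gene, beside 36 PR vehicle regions. EGFR had 13, ERBB3 12 and ERBB2 7, while EREG had 1, of −log10 q 36.5. Of 17 Wnt pathway genes, 13 had a gained region within 50 kb, 76.5%, against 87.6% of all coding genes. Their median per 100 kb of gene and flanks was 3.16. LRP5, a coreceptor gene, had 35, and FZD4, a receptor gene, and AXIN1, a scaffold gene, had 16 each. WNT5A, FZD1, LRP6 and LGR5 had 0.

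All 15 cell adhesion genes had a gained region within 10 kb, against 73.6% of all coding genes, and the median within 50 kb was 13. Per 100 kb of gene and flanks the median was 6.39, against 3.34 over all coding genes. ITGB4, a hemidesmosome integrin gene, had 25 beside 8 PR vehicle regions. CDH1, the E-cadherin gene, had 18 (highest −log10 q 36.5), and CTNNA1, which encodes its partner alpha-catenin, had 18 beside 3 PR vehicle regions. EPCAM had 5 and no PR vehicle region. All 12 lipid metabolism genes had a gained region within 50 kb, against 87.6% of all coding genes. The median was 10, or 5.87 per 100 kb of gene and flanks. SREBF2, the sterol regulator gene, had 21 (highest 38.7), and SREBF1 and FASN, the fatty acid synthase gene, had 12 each, with highest values of 46.98 and 18.9.

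Of 15 genes that mark other tissues, 8 had a gained region within 50 kb, 53.3%, against 87.6% of all coding genes. The median was 1, or 0.787 per 100 kb of gene and flanks. ALB, TTN, MYH7, GCG, HBB, SFTPA1 and LIPF had 0. The highest count was at RBFOX3, a neuronal splicing factor gene of 576.2 kb on chromosome 17, with 30 gained regions (highest −log10 q 36.9) and 6 PR vehicle regions within 50 kb, and with 19 and 1 in its span. The lists differ in gene length, with medians from 8.50 kb for AP-1 to 103.0 kb for coregulators and 14.4 kb for the other tissues. The plot of counts by list shows most genes under 20 gained regions and single genes beyond 30.

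**Figure D5:**
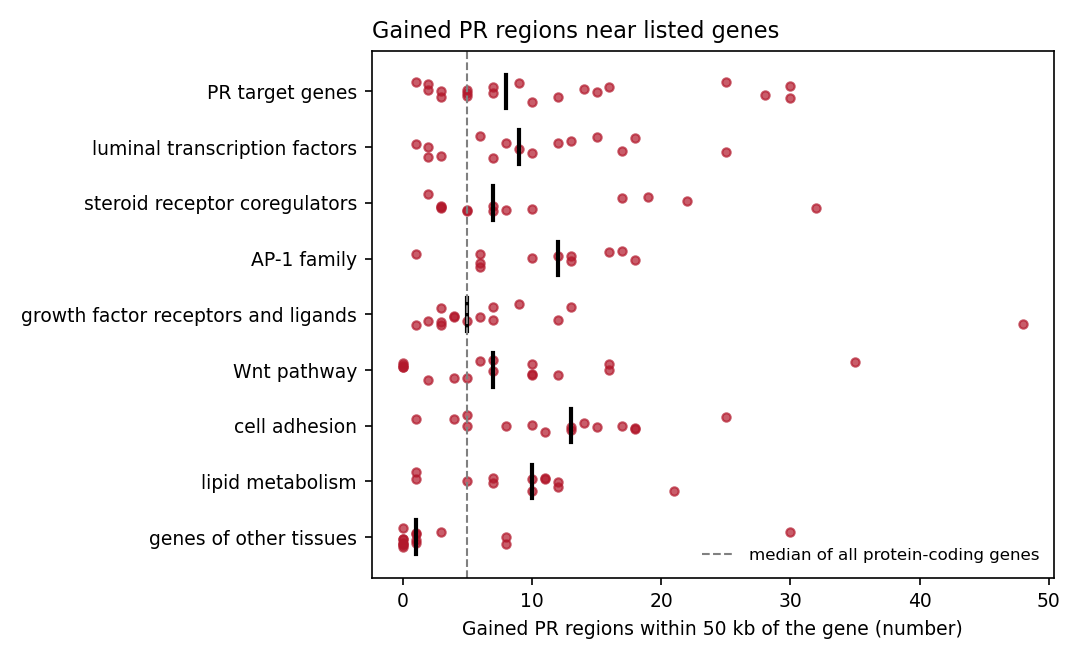
Number of gained PR regions within 50 kb of each listed gene (x axis) by gene list (y axis), with 1 point per gene, a black bar at the list's median and a dashed line at the median of all protein-coding genes, 5. IGF1R has 48, and the genes of other tissues have a median of 1.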

How the data were processed

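ChIP-seq of PR and POLR3A in T47D cells was deposited as 4 peak lists, 1 per antibody and treatment. Per the submitters' processing notes, cutadapt, Bowtie2 and MACS2 were used with build hg38. Versions, the control and the pooling of replicates are not given in the sources used here. For each region the deposited columns used were the authors' enrichment over background, a ratio, and their −log10 q-value, and the largest q-value in the PR P4 list was 0.0494. The lists hold no read counts, so library depth is unknown, and longer lists can come from deeper libraries. The commonest step between fold values was 0.21 for PR under P4 and 0.23 for PR under vehicle, which does not give depth because scaling is not stated.

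Regions on chromosomes 1 to 22 and X were kept (111515 and 38933 for PR under P4 and vehicle, 47904 and 29161 for POLR3A). Overlap was 1 bp or more. Genes came from RefSeq (GRCh38.p14, 58419 kept after repeats of alternate sequences were left out), and starts and promoter sequences from its promoter table. Python 3.11.15 with pandas 2.3.3 and scipy 1.17.1 was used. The 3 overlap counts were the same with bedtools 2.31.1, and distances were tested on simulated data. Shares have 95% Wilson intervals.

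The text names the 10 strongest gained regions, 10 genes by count and 10 by density, the 10 strongest promoter windows and those with the element, the 5 largest runs, and listed genes with most or no gained regions. A few items that these rules select are not reported here. Others are stated as picked after their values were seen. Members, lists and rules were chosen with earlier results of these data known. Settings varied were a −log10 q minimum of 5 or 10, the overlap rule, the length of the PR lists, and the windows.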

Additional observations from a re-analysis of the deposited data

Results flagged for a closer look

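On sequences outside chromosomes 1 to 22 and X, which the comparisons did not use, the PR P4 list held 1019 regions, and 279 of them, 27.4% (95% Wilson interval 24.7 to 30.2), overlapped no region of the other 3 lists. On chromosomes 1 to 22 and X the share was 59.8%. The 279 were flagged for being above a bound of 3, but nothing predicts a count near 0 there. No control list was used here. Their median −log10 q was 4.10 and the highest 31.6.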

How the results depend on the processing

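No paired analysis was possible because each group has 1 list and no value per replicate, and for the same reason no replicate could be left out. Most values moved with the settings. With PR P4 regions at −log10 q of at least 5, 24885 gained regions remained, 45.1% of the list at that threshold, with medians of 8.14 for −log10 q, 4.55 for fold and 265 bp for width. Of these, 32.0% were within 5 kb of a PR vehicle region, 4.63% within 1 kb of a start, 55.4% inside coding genes and 35.5% within 10 kb of another. At −log10 q of at least 10 the values were 9319, 30.5%, 15.7, 6.29, 302 bp, 28.5%, 3.72%, 57.5% and 17.6%, in the same order. There were 9314 genes within 50 kb, 1238 of them with no PR vehicle region. The response element was then in 0% of promoter windows (0 to 6.64), an interval that holds the main value of 0.474%. With all 4 lists at −log10 q of at least 5 it was in 1.30% (0.557 to 3.01). With the PR P4 list at the length of the PR vehicle list it was in 1.20% (0.213 to 6.51). With all 4 lists at −log10 q of at least 5 there were 33731 gained regions, 61.1%, with medians of 8.14, 4.51 and 288 bp, shares of 24.5% near a PR vehicle region, 7.15% near a start and 47.5% near another, and 4707 genes with no PR vehicle region.

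With a reciprocal overlap of 50% the share of the list was 71.5%, the median −log10 q 4.10 and width 262 bp, and the shares near a PR vehicle region, a start and another gained region were 41.4%, 6.84% and 73.2%. With no other region within 1 kb these were 45.2%, 4.05, 246 bp, 23.3%, 3.30% and 55.3%. With the PR P4 list at the length of the PR vehicle list there were 14565 gained regions, 37.4%, with medians of 12.0, 5.45 and 285 bp, shares of 29.5%, 3.94%, 56.8% inside genes and 23.3% near another, and 1745 genes with no PR vehicle region. Within 1 kb and 50 kb of a PR vehicle region lay 11.2% and 81.8%, within 5 kb of a start 14.9%, within 1 kb of either end of any coding gene 7.91% (chosen after seeing the data), and within 2 kb of another gained region 25.6%. The gene span alone gave 10895 genes, 4788 of them with no PR vehicle region, and AGAACA was in 14.7% of windows. The thresholds and the equal length test fewer regions. By definition, the reciprocal overlap of 50% can only add gained regions, and asking for no other region within 1 kb can only remove them. The share of the list therefore had to rise with the first and fall with the second. The second also removes every gained region within 1 kb of a PR vehicle region. The cause of the remaining shifts was not tested. Of 82 values under other settings, 60 moved beyond their interval or 1.5 times and 22 did not. Some of these settings measure another quantity, such as another distance, or the hexamer in place of the element. A higher −log10 q minimum also raises the median −log10 q. The tally is therefore no measure of robustness. Unknown depth limits how far the number of gained regions can be read.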
